A study of Rattus norvegicus with 4 samples.

Results

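Ribosome footprints were examined on 10 genes of the calcium-dependent route to MEF2 in neonatal rat ventricular cardiomyocytes: the transcription factors Mef2a, Mef2c and Mef2d, the CaMKII subunits Camk2d and Camk2g, the class IIa histone deacetylases Hdac4, Hdac5, Hdac7 and Hdac9, and protein kinase D1, Prkd1. They were chosen by name out of 13694 genes with an annotated open reading frame (ORF), and each gene was represented by its annotated ORF with the most counts over all 4 libraries. The cells came from the cardiac ventricles of Sprague-Dawley rats at postnatal day 2, were plated for 1 hour to take out cells that adhere early, and were grown in medium with fetal bovine serum. Of the 4 ribosome profiling libraries, 2 came from cells given phenylephrine (PE, an α1-adrenergic agonist and common hypertrophic stimulus) for 24 h at 20 µM and 2 from untreated control cells. The series asked how translation in these cells differs with and without PE. RNA-seq was not analysed here, so a footprint count carries both the amount of mRNA and its translation.

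MEF2 proteins are MADS-box factors that activate muscle and stress genes, and class IIa HDACs bind them and keep those genes silent. CaMKII, which calmodulin switches on when calcium rises, and protein kinase D, which lies downstream of protein kinase C, phosphorylate class IIa HDACs. Proteins of the 14-3-3 family then hold the phosphorylated HDACs in the cytoplasm and MEF2 is released. This circuit is a textbook route from α1-adrenergic receptors to hypertrophic gene expression, and it acts largely through phosphorylation, which footprints do not measure.

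The libraries held 12117629 and 12537740 counts in PE and 11446574 and 13827599 in control. Replicates varied beyond counting noise: chi-square over its degrees of freedom was 1.60 in PE and 1.61 in control. Whether each replicate was its own culture is not said in the labels, and the p-values therefore cover only a spread between libraries that may be technical. Of 11 cardiomyocyte markers, 9 were listed, with a summed level of 90669 to 91438 CPM in PE and 85241 to 85463 CPM in control (CPM, counts scaled to a common library size with TMM factors). By gene, 3 of the 9 were called higher, among them Actc1 (0.51 on the log2 scale) and Myl3 (0.44), and 6 lower, among them Myh6 (-1.31) and Ryr2 (-0.87). Fibroblast markers, all 10 of which were listed, summed to 23652 to 23975 CPM in PE and 36976 to 37240 CPM in control. Of the 9 tested, 6 were lower, among them Postn (-1.06) and Col3a1 (-1.72). Another 2 were higher, Dcn (0.70) and Mmp2 (0.19), and Lum was not called. Col1a2 had 2 counts in all for 158850 P-sites (inferred ribosome positions, described below), so the fibroblast sum covers almost none of them. Fbln1, 1 of the 6 lower, had 0.0939 counts per P-site. Over all tested ORFs, 21.4% were called higher and 21.3% lower. In bulk libraries fewer cells of a type and less RNA per cell cannot be told apart.

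MEF2 also binds promoters of genes of its own circuit. The promoters of the 10 genes were therefore read for a loose form of the core of its binding site. RefSeq promoters on the GRCr8 build were at hand for 9 of them, all but Mef2c, each covering 250 bases before and 50 after the transcription start. The pattern of CTA, any 4 bases and TAG, which reads the same on both strands, was found in 2 of the 9, Mef2a and Hdac5, and in 1284 of all 33469 promoters of that table (3.84%). Both are shown up to the transcription start, 5′ to 3′ on the gene's own minus strand, because they are the members that carry it and because Mef2a and Hdac5 went opposite ways after PE; capitals mark the match.
Mef2a, chr1:130392163-130392412: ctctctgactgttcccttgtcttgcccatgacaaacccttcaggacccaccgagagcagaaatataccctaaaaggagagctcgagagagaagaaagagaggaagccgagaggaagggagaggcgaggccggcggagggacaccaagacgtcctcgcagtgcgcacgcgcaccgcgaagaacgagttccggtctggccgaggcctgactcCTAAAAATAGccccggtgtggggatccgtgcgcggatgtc
Hdac5, chr10:87688055-87688304: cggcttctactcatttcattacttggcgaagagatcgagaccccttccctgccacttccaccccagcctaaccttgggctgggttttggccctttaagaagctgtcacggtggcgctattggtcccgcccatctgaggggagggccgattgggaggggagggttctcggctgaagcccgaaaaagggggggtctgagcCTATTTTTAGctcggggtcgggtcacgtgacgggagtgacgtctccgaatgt
The match lay 40 to 31 bases before the start in Mef2a and 52 to 43 bases before it in Hdac5. Among 15 genes known as MEF2 targets in muscle, 13 had a promoter in the table and 2 held the pattern, Xirp2 and Des, shown here as the match with 10 bases on either side for comparison.
Xirp2, chr3:72534102-72534131: agctcagctcCTAAAAATAGatgctaggtt
Des, chr9:84299579-84299608: gtcaggagggCTACAAATAGtgccgacagc
Xirp2 carried the same 10 letters as Mef2a, 74 to 65 bases before its start, and in Des the match lay 37 to 28 bases before the start. These matches describe letters in a window and not bound sites, and the pattern did not limit the middle 4 bases, which include a C in Des.

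The genes differed widely in level. Per kilobase of ORF, Mef2a was the highest, at 134 ± 0.0366 CPM per kb in PE and 157 ± 3.17 in control (SD, n = 2 libraries each, as for all SDs here), followed by Camk2d at 83.9 ± 1.17 in PE and 98.3 ± 0.508 in control. Mef2c stood at 37.3 ± 0.203 CPM per kb in PE and 51.1 ± 2.37 in control, and Mef2d at 36.3 ± 1.27 in PE and 37.9 ± 0.868 in control, so these neighbours differed by less than their spread in PE and by more in control. Hdac5 was the most heavily occupied of the class IIa deacetylases, with 15.6 ± 1.24 CPM per kb in PE and 13.0 ± 0.660 in control. Hdac7 (3.04 ± 0.180 in PE, 5.16 ± 0.181 in control) and Prkd1 (3.59 ± 0.0717 in PE, 4.99 ± 0.158 in control) lay within their spread of each other in control. Hdac4 had 2.80 ± 0.737 CPM per kb in PE and 3.34 ± 0.204 in control.

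**Figure D1:**
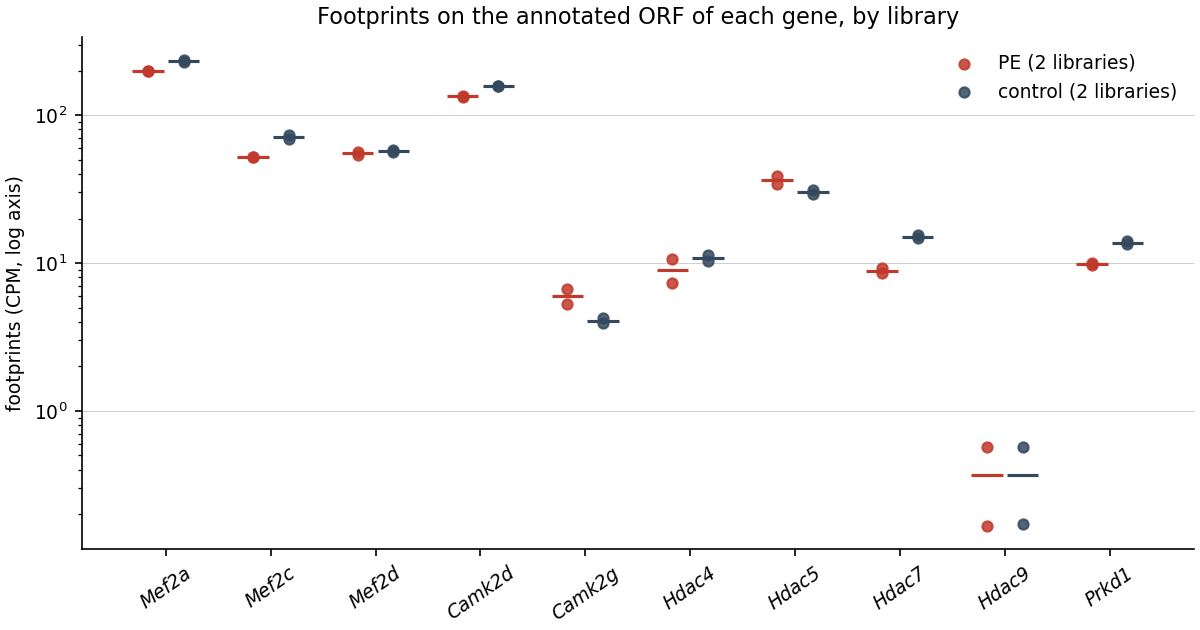
CPM (log axis) of the annotated ORF of each gene in each library, PE in red to the left of control in dark blue, with bars at the group means. Mef2a and Camk2d had the highest values, Hdac9 the lowest, at 0.167 to 0.570 CPM, and the PE and control points of Mef2c, Hdac7 and Prkd1 lie apart.

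Counts and P-sites, the inferred positions of the ribosome's peptidyl site that the authors give once per ORF and not per library, gave the same order for most of the genes but not for Camk2g and Hdac9. Over all ORFs the median was 1.12 counts per P-site, and 8 of the 10 members had 0.992 to 1.22. Camk2g had 249 counts for 2064 P-sites, a ratio of 0.121, and Hdac9 had 19 counts for 509 P-sites, a ratio of 0.0373. By P-sites per kb, Camk2g was the fifth of the 10 genes, at 1306, between Mef2d at 1647 and Hdac5 at 608. By counts per kb in control it was the ninth. Camk2g made up 21.9% of the P-sites of the CaMKII pair and 3.30% of its counts. Both genes had another annotated ORF on the same stretch with 0 counts in every library: one of 265 residues in Camk2g, which begins 268 codons after the annotated start and holds 797 P-sites, and one of 953 residues in Hdac9 with 491 P-sites. Whether shared positions were left out of the counts was not tested. Values of Camk2g and Hdac9 below thus rest on counts that cover a small part of their P-sites.

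**Figure D2:**
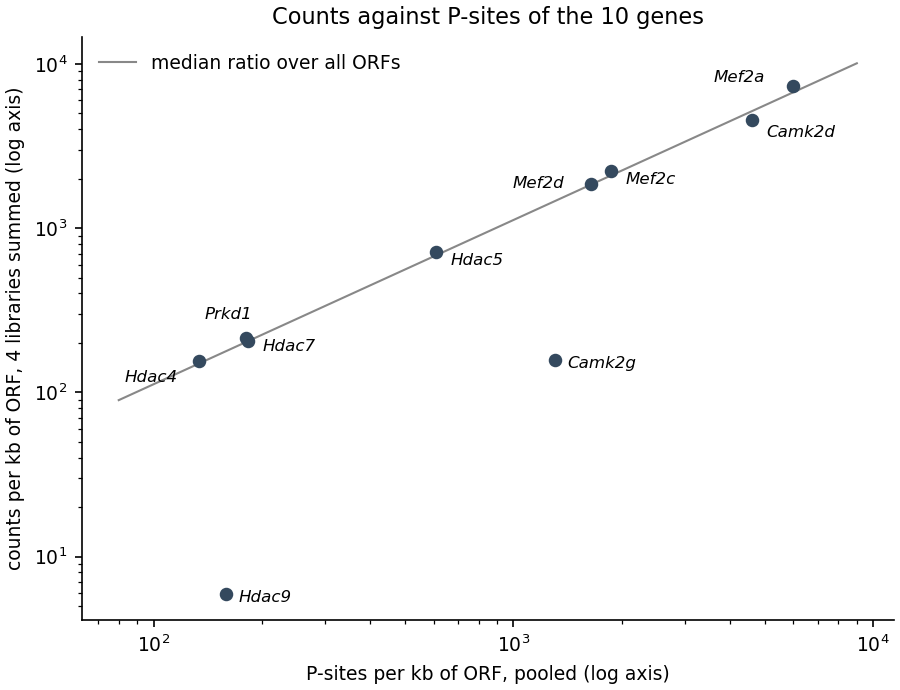
Counts per kb summed over 4 libraries against pooled P-sites per kb for the 10 genes (both axes log), with a line at the median ratio over all ORFs, 1.12. Camk2g and Hdac9 fall far below the line, and the other 8 lie close to it.

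The footprints of the members kept the reading frame. Of the P-sites on the 10 ORFs, 79.3% (Camk2d) to 90.3% (Hdac4) were in the frame of the coding sequence, where all ORFs together had 84.7%. P-sites fell on 84.2% of the in-frame positions of Mef2a and 81.8% of those of Camk2d, but on 20.1% to 24.8% in Hdac4, Hdac7, Hdac9 and Prkd1. The ORF listed for Hdac5 (Rnor_6.0 chromosome 10, 90140270 to 90149364) has 778 residues and begins 169 codons after the annotated start of its transcript, so its values leave out the first part of the protein. No member had an upstream ORF with a mean of at least 10 counts. The one that was listed, an 18-residue ORF overlapping the start of Hdac9, had 2 and 1 counts in PE and 2 and 2 in control.

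After PE, footprints fell on Mef2a, Mef2c, Camk2d, Hdac7 and Prkd1 and rose on Hdac5 and Camk2g. In all, 7 of the 9 tested members passed at 0.05 by the quasi-likelihood test of edgeR after Benjamini-Hochberg adjustment, 5 lower and 2 higher, while Mef2d and Hdac4 did not pass and Hdac9 had too few counts to be tested. Of all 12609 ORFs tested, 42.7% passed, 21.4% higher and 21.3% lower, and among the 8546 with a mean count in the range of the tested members 47.3% passed. The members' changes were of ordinary size: their median absolute log2 fold change was 0.27, against 0.26 over all tested ORFs, and their median log2 fold change was -0.23, against 0.00041 over all. Groups did not overlap in 8 of the 9, where 68.6% of all tested ORFs did not overlap. The authors' deposited table, from DESeq2, passes 4 of the members, Mef2a, Mef2c, Camk2d and Hdac7, where 25.8% of the ORFs in it pass.

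**Figure D3:**
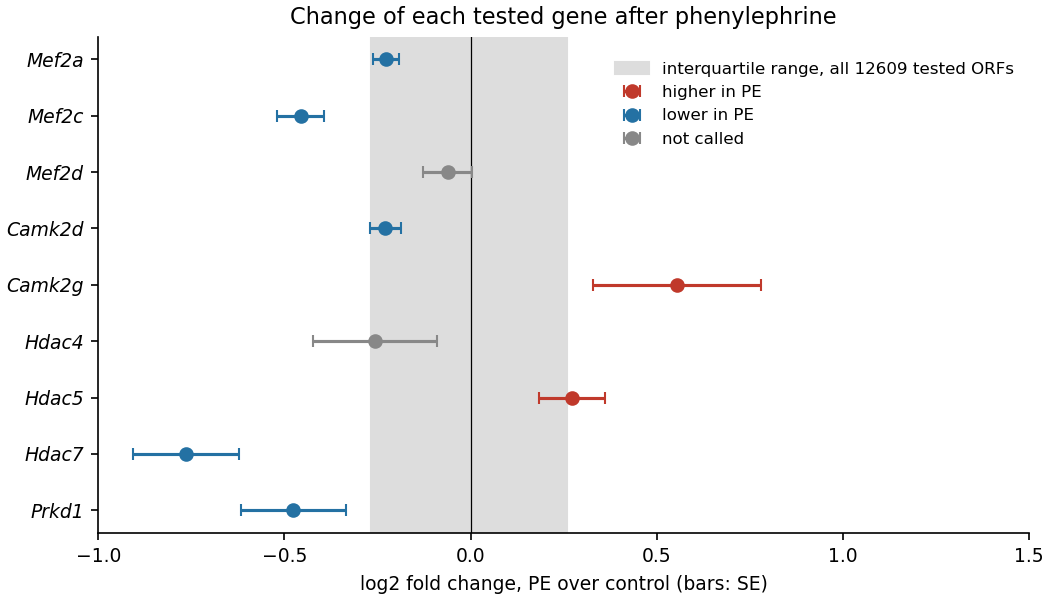
log2 fold change of PE over control for the 9 tested genes, with bars for the SE, red for higher, blue for lower and grey for not called, over a grey band at the interquartile range of all 12609 tested ORFs. Hdac7 has the lowest value, -0.76, and Camk2g the highest, 0.55, with the widest bar.

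Among the MEF2 factors, Mef2c fell the furthest. This MADS-box factor is required for heart formation in the mouse. Mef2c (chromosome 2, 11730033 to 11818308, plus strand) had 52.3 and 51.9 CPM in PE and 69.0 and 73.7 CPM in control. Both PE libraries were below both control libraries, with a log2 fold change of -0.46 ± 0.06 (SE) and an adjusted p = 4.4e-07 by the quasi-likelihood test of edgeR. Mef2a, the most occupied MEF2 gene in these cells (chromosome 1, 128211391 to 128287151, minus strand), had 198 and 198 CPM in PE and 236 and 229 CPM in control. Its groups did not overlap either, and its log2 fold change was -0.23 ± 0.03 (adjusted p = 2.0e-06 in the same edgeR test). Mef2d, the form through which pathological cardiac remodelling has been studied in mice (chromosome 2, 187525425 to 187537867, plus strand), had 53.8 and 56.5 CPM in PE and 58.5 and 56.7 CPM in control. The groups did not overlap but nearly touched, and the log2 fold change of -0.06 ± 0.07 did not pass (adjusted p = 0.495 in edgeR).

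As a family the MEF2 factors held 304 and 307 CPM in PE and 363 and 360 CPM in control. Mef2a kept close to the same share of the family's counts, at 65.2% and 64.7% in PE and 64.9% and 63.7% in control. Mef2c took 17.2% (95% exact Clopper-Pearson interval 16.0% to 18.4%, for counting error only, as for the other intervals here) and 16.9% (15.7% to 18.1%) in PE, and 19.0% (17.8% to 20.2%) and 20.5% (19.4% to 21.6%) in control. Mef2d took 17.7% and 18.4% in PE and 16.1% and 15.8% in control. The shares of Mef2c and of Mef2d did not overlap between groups, but 2 against 2 libraries cannot give an exact permutation p below 0.333, so no test was made of them. The translated ORFs are close relatives: over the first 86 residues, which hold the MADS box and the MEF2 domain, Mef2a and Mef2c were 98.8% identical and Mef2d was 94.2% identical to Mef2a and 93.0% to Mef2c. Over the rest of the aligned residues identity was 51.1% to 59.2%.

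Of the kinases, both Camk2d and Prkd1 fell. Camk2d, the δ subunit and the main CaMKII form of the heart (chromosome 2, 230901348 to 231128687, plus strand), had 135 and 133 CPM in PE and 157 and 158 CPM in control. The pairs stood well apart relative to their spread, with a log2 fold change of -0.23 ± 0.04 and an adjusted p = 3.1e-05 by the quasi-likelihood test of edgeR. Prkd1, the kinase that links protein kinase C to HDAC5 (chromosome 6, 71035789 to 71349249, minus strand), had 10.0 and 9.74 CPM in PE and 13.4 and 14.0 CPM in control. Its groups did not overlap, and the log2 fold change was -0.48 ± 0.14 (adjusted p = 0.00628 in edgeR). DESeq2 did not pass Prkd1, with an adjusted p = 0.106.

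Camk2g, the γ subunit (chromosome 15, 3936821 to 3993260, plus strand), had 5.26 and 6.66 CPM in PE and 4.22 and 3.92 CPM in control, from 63 and 82 counts in PE and 49 and 55 in control. Both PE values were above both control values, and the log2 fold change was 0.55 ± 0.22 (adjusted p = 0.0465 by the quasi-likelihood test of edgeR). Of the 7 calls, this one was lost in the most alternatives. It was lost without control replicate 1 (0.60, adjusted p = 0.0672 in edgeR), without control replicate 2 (0.50, adjusted p = 0.175 in edgeR) and without PE replicate 2 (0.38, adjusted p = 0.355 in edgeR), and also with library totals alone and in DESeq2. The CaMKII ORFs were 85.7% identical over 504 aligned residues.

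The class IIa deacetylases parted. Hdac7, a form known above all from endothelial and lymphoid cells (chromosome 7, 139281386 to 139318300, minus strand), had 9.27 and 8.52 CPM in PE and 14.7 and 15.5 CPM in control. It was the member with the largest change in size, 1.70-fold lower in PE, with a log2 fold change of -0.76 ± 0.14 and an adjusted p = 3.9e-05 by the quasi-likelihood test of edgeR. Of 10 endothelial markers in the list, 9 were tested, with 5 lower, 1 higher and 3 not called, where 21.3% of all tested ORFs were lower. Their sum was 190 to 195 CPM in PE and 284 to 295 CPM in control. The members of that list differed: Cdh5, an endothelial cadherin and the most abundant of them, had 72.5 ± 5.77 CPM in PE and 140 ± 6.21 CPM in control, Egfl7 was higher (1.06 on the log2 scale), and Tek (-0.02), Flt1 (0.12) and Vwf (-0.15) did not pass. None of the listed endothelial markers was at 0 counts. Macrophage and leukocyte markers were lower as well, 7 of 8, where 21.3% of all tested ORFs were lower. Their sums were 295 to 296 CPM in PE and 424 to 446 CPM in control. Of 7 smooth muscle and pericyte markers, 5 were lower and 2 higher, but their sum was 2436 to 2480 CPM in PE and 2172 to 2203 CPM in control. The median log2 fold change was -0.48 for the endothelial list and -0.47 for the fibroblast list. The part of these cells in the Hdac7 value was not tested, nor was it for Mef2c, a gene also used by endothelial and immune cells.

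Hdac5 went up. It is a target of both CaMKII signalling and protein kinase D, and its ORF had 38.5 and 34.4 CPM in PE and 31.3 and 29.1 CPM in control. Every PE value lay above every control value, with a log2 fold change of 0.27 ± 0.09 (adjusted p = 0.0130 by the quasi-likelihood test of edgeR). The call was lost without control replicate 2 (0.22, adjusted p = 0.122 in edgeR), without PE replicate 1 (0.19, adjusted p = 0.195 in edgeR) and in DESeq2 (adjusted p = 0.139). Hdac4, the deacetylase that CaMKII binds directly (chromosome 9, 99057557 to 99266804, minus strand), had 7.35 and 10.7 CPM in PE and 10.3 and 11.3 CPM in control. The PE libraries disagreed with each other, the groups overlapped, and the log2 fold change of -0.26 ± 0.17 did not pass (adjusted p = 0.226 in edgeR). Its value hung on which PE library was kept: -0.56 without PE replicate 2 (adjusted p = 0.0266 in edgeR) and -0.016 without PE replicate 1 (adjusted p = 0.961 in edgeR). Hdac9 (chromosome 6, 53488932 to 53976131, minus strand), a deacetylase that restrains cardiac growth in mice, had 2 and 7 counts in PE and 2 and 8 in control, too few to be tested, although its 509 P-sites were close to the 534 of Hdac7 and the 499 of Prkd1.

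The summed level of the class IIa family stayed near the same value, at 55.3 and 54.2 CPM in PE and 56.5 and 56.4 CPM in control, while its makeup differed. Hdac5 held 69.6% (66.0% to 73.1%) and 63.5% (59.7% to 67.1%) of the family's counts in PE, against 55.4% (51.5% to 59.2%) and 51.6% (48.1% to 55.2%) in control. Hdac7 held 16.8% and 15.7% in PE and 26.0% and 27.4% in control. Hdac4 held 13.3% and 19.8% in PE and 18.3% and 19.9% in control, which overlapped. The difference in responses between Hdac5 and Hdac7 was not itself tested. The shares are of counts, so a longer ORF weighs more, and Hdac9 is under-represented in them, with 17.6% of the family's P-sites and 0.684% of its counts.

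**Figure D4:**
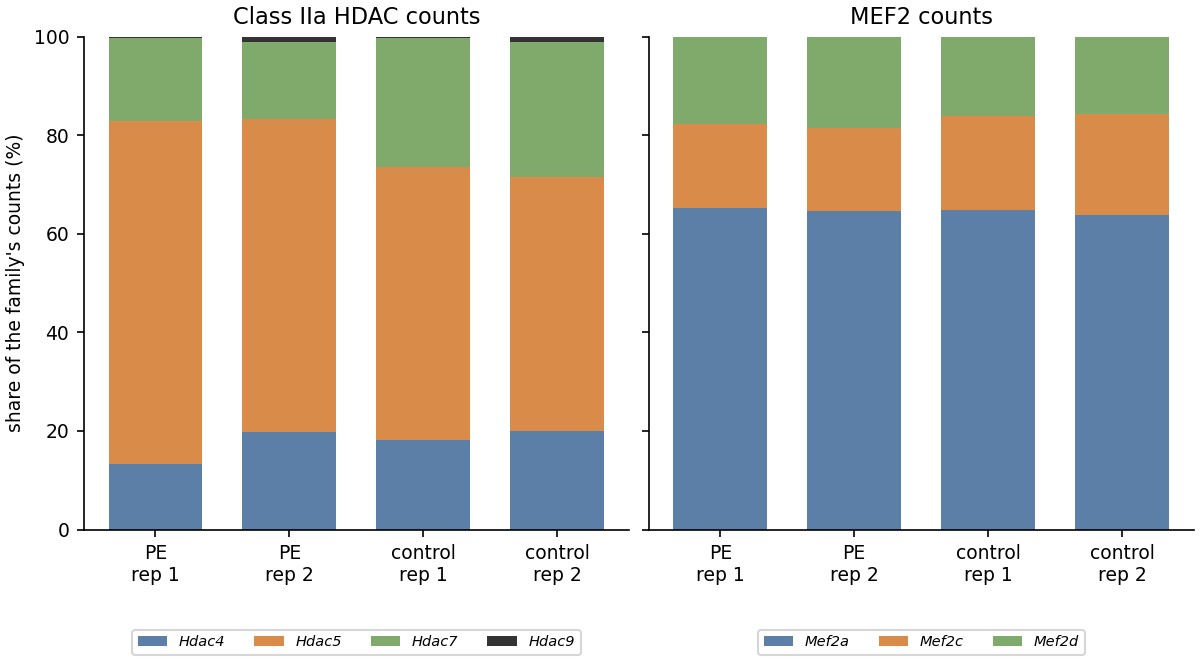
Share of each member in the summed counts of the class IIa HDACs (left) and of the MEF2 factors (right) in each library, PE libraries to the left of control libraries. Hdac5 takes a larger and Hdac7 a smaller share in both PE libraries than in both control libraries, while Mef2a holds 63.7% to 65.2% throughout.

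Around these members, carriers and corepressors of class IIa HDACs were mostly called higher. Calm2 and Calm3 both encode calmodulin: Calm2 was higher by 0.45 ± 0.04 on the log2 scale, and Calm3 by 0.21 ± 0.06, a call lost once the trend with ORF length was removed (0.12). The CaMKII inhibitor Camk2n1 had -0.37 ± 0.27 and did not pass. Of 14 carriers, corepressors and modifiers of class IIa HDACs 12 were tested, 9 higher and 1 lower, where 21.4% of all tested ORFs were higher and 21.3% lower. The median log2 fold change of this list was 0.30, where the median over all tested ORFs was 0.00041. Among the 14-3-3 genes, Ywhaz had 734 and 756 CPM in PE and 517 and 543 CPM in control, a log2 fold change of 0.49 ± 0.02. Ywhag was higher by 0.42 ± 0.03, Ywhah by 0.31 ± 0.03 and Ywhae by 0.29 ± 0.02. All 6 tested 14-3-3 genes were called higher, Ywhaq with 0.316 counts per P-site, but Ywhab (0.13) lost its call without control replicate 2 (0.087) and with the length trend removed (0.069). The corepressor Ncor1 was the member that fell, at -0.26 ± 0.06, but after removal of the length trend it stood at -0.01 and was not called.

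Of 23 further kinases upstream of class IIa HDACs and MEF2, 19 were tested, 5 higher, 2 lower and 12 not called. Their median log2 fold change was -0.05, and 42.7% of all tested ORFs were called. The salt-inducible kinase Sik1, which phosphorylates class IIa HDACs, changed the most: it had 120 and 118 CPM in PE and 39.2 and 40.1 CPM in control, 2.99-fold higher, with an adjusted p = 5.8e-21 by the quasi-likelihood test of edgeR. Its relative Sik3 was higher by 0.24 ± 0.06, and Grk5, a receptor kinase that also phosphorylates HDAC5 in the nucleus, by 0.56 ± 0.10. Camk2b, a CaMKII subunit best known from brain, was higher by 1.40 ± 0.40 on 88 counts in all, a call lost without PE replicate 2 (1.09). The 2 lower kinases, Prkd2 at -0.53 ± 0.18 and Prkcb at -1.10 ± 0.44, also lost their calls without PE replicate 2 (-0.31 and -0.67), and Prkcb without either control replicate (-1.09 and -1.12). Camk2a had 403 P-sites and 0 counts and could not be tested, like the kinase Mapk7 (626 P-sites). In the list of carriers, corepressors and modifiers, Ppp2ca (13412 P-sites) and Sfn (14 P-sites) likewise had 0 counts. Library totals alone called 5 kinases lower and 4 higher, while 0 were lower with the length trend removed (Prkd2 -0.44, Prkcb -1.06), and DESeq2 called neither Camk2b (1.40), Prkd2 (-0.53) nor Prkcb (-1.11), at folds close to those of edgeR.

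Of 7 HDACs outside class IIa, 6 were tested and 2 were higher, Hdac1 by 0.50 ± 0.10, with 0.313 counts per P-site, and Hdac3, the partner through which class IIa HDACs act as deacetylases, by 0.30 ± 0.09. Hdac3 lost its call without PE replicate 1 (0.18). The other 4 did not pass, among them Hdac2 at 0.03 ± 0.04. Hdac6, with 17 counts for 3756 P-sites, had too few counts to be tested. Of 11 MEF2 relatives and cofactors 8 were tested, with 2 higher, 2 lower and 4 not called. Beside both of these lists, 42.7% of all tested ORFs were called, 21.4% higher and 21.3% lower. Myocd, a cardiac and smooth muscle coactivator of serum response factor that also has a MEF2-binding form, had 92.7 and 94.7 CPM in PE and 55.6 and 62.4 CPM in control, 0.66 ± 0.06 higher on the log2 scale. The arginine methyltransferase Carm1 was higher by 0.22 ± 0.06, a call lost without control replicate 2 (0.16) or PE replicate 2 (0.13). The acetyltransferase Crebbp had -0.30 ± 0.05, which became -0.05 and was not called once the length trend was removed. Srf had -0.30 ± 0.10 and lost its call without control replicate 2 (-0.27) or PE replicate 1 (-0.28). DESeq2 called none of Hdac3 (0.30), Carm1 (0.22) and Srf (-0.30).

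**Figure D5:**
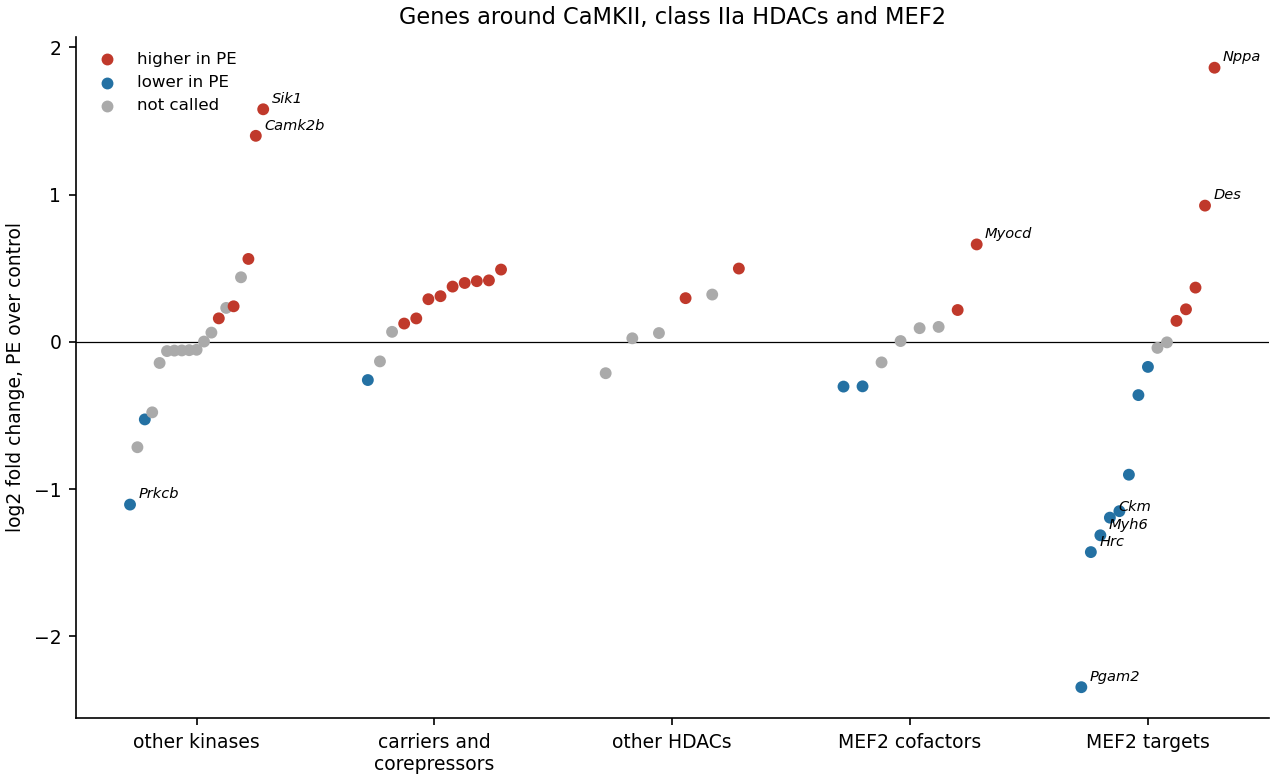
log2 fold change of PE over control for each tested gene of 5 lists around the members, each list in rising order, red for higher, blue for lower and grey for not called. The HDAC carriers lie mostly above 0, and the MEF2 targets spread from -2.34 (Pgam2) to 1.86 (Nppa).

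Genes known as MEF2 targets in muscle went both ways. All 15 were tested, and 5 were higher, 8 lower and 2 not called, with a median log2 fold change of -0.17. The shares over all tested ORFs were 21.4% higher and 21.3% lower. Among the lower ones were phosphoglycerate mutase Pgam2, with 11.7 and 9.17 CPM in PE and 53.2 and 52.7 CPM in control, creatine kinase Ckm at -1.19 ± 0.02, the calcium-binding protein Hrc at -1.43 ± 0.05, and the α myosin heavy chain Myh6 at -1.31 ± 0.01, with 0.190 counts per P-site. Among the higher ones were the actin-binding protein Xirp2 at 0.37 ± 0.03, desmin (Des) at 0.93 ± 0.01, skeletal α-actin (Acta1) at 0.22 ± 0.02 and the natriuretic peptide precursor Nppa at 1.86 ± 0.01. The pair whose promoters hold this pattern of letters, Xirp2 and Des, were both called higher. So were Ywhah, the 1 match among 11 carriers with a promoter, and the member Hdac5. Mef2a, with the same 10 letters as Xirp2, was called lower. Whether the pattern goes with the change was not tested. Nr4a1, an immediate-early gene on which MEF2 and class IIa HDACs act in T cells, had -0.0026 ± 0.18 and did not pass.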

How the data were processed

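The 4 libraries are ribosome profiling of cultured cardiomyocytes, grouped by their titles into PE and control. Per the labels' protocols, lysates were treated with cycloheximide and RNase I, and fragments of 26 to 30 nt were cut from a gel. The submitters' processing notes name STAR 2.4.2a, cutadapt 2.0 and Bowtie 1.1.2 as tools and Rnor_6.0 as the build. For the ORF caller and counter no name is given in the sources used here. For 18847 ORFs the authors deposited raw counts. The annotation table holds, per the file headers, the authors' DESeq2 log2 fold changes and adjusted p-values, P-site counts with 1 value per ORF and no library named, and the percent of in-frame positions with a P-site.

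Low counts were removed with filterByExpr and library sizes scaled by TMM (factors 0.982 to 1.02). The robust quasi-likelihood test of edgeR 4.0.16 in R 4.3.3 set PE against control, with no term for the replicate number, and Benjamini-Hochberg adjustment ran over the 12609 ORFs tested. The common biological coefficient of variation was 2.18%. The SE is the log2 fold change over the square root of F. The test was checked on simulated data. Identity came from global alignment (BLOSUM62, Biopython 1.88) of the deposited translations. All 10 members were named, and from each gene list up to 4 genes called higher and up to 4 called lower with the smallest p. Camk2n1, Ywhaq, Hdac2, Hdac6, Nr4a1, Ywhab, the 4 genes at 0 counts and the cell type markers were named after their values were seen. Members and lists were chosen with earlier results of these data known. The genes Camk4, Mef2b, Ep300, Kat2b, Ttn, Myl2 and Pecam1 were not analysed here, and 1 gene of the lists is not reported here. Alternatives were other scalings, no filter, DESeq2 1.42.0, a replicate block, each library left out, removal of the trend with ORF length, and summed annotated ORFs. Library depth and intervals are given with the results.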

Additional observations from a re-analysis of the deposited data

How the results depend on the processing

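Each of the 9 tested members kept its direction in all 11 alternatives, and 89 of the 99 values stayed on the same side of the threshold. The count of 5 lower members ranged from 4 to 6, and Mef2a, Mef2c, Camk2d and Hdac7 stayed called lower in all alternatives. The 2 higher members were less secure: library totals alone left 1, since Camk2g (0.51) lost its call, and DESeq2 left 0, with 1 at an unadjusted p under 0.05 against 2 in edgeR's quasi-likelihood test. With single libraries left out the higher count ranged from 0 to 1, and the 0, without control replicate 2, was also 0 at an unadjusted p under 0.05 in edgeR. DESeq2 gave Camk2g 0.55, Hdac5 0.27 and Prkd1 -0.48, all no longer called, and it called 25.8% of all ORFs. With single libraries left out, Camk2g ranged from 0.38 to 0.71, Hdac5 from 0.19 to 0.35 and Hdac4 from -0.56 to -0.016. The cause was not tested. Over all ORFs the calls numbered 5386, and 3418 in DESeq2.

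Replicate numbers do not pair the libraries by their labels, and deviations of same-numbered replicates had a correlation of -0.0090 over tested ORFs. With the replicate block 5447 ORFs were called instead of 5386, again with 2 members higher and 5 lower. Library totals alone moved the median of all ORFs to -0.04. The comparison of upstream and annotated ORFs was not run, since no member had an upstream ORF with enough counts. Alternatives for the gene lists were chosen after seeing the data. Hdac9 and Camk2g rest on few counts for their P-sites, and the cause was not tested.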

Other observations

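Inside the coding sequence of Camk2d the deposited annotation lists a second, internal ORF of 150 nt in another reading frame, over codons 191 to 241 of the subunit. Its pooled P-sites numbered 506 in its own frame, 802 in the frame of the Camk2d coding sequence and 91 in the remaining frame. The 506 were 41.0% of all 1233 P-sites that the Camk2d coding ORF had in that frame, on 9.38% of its length, while the same stretch held 13.8% of its in-frame P-sites. Camk2d had 79.3% of its P-sites in frame, the lowest of the 10 members, and the part of this stretch in that value was not tested. The internal ORF had 0 counts in every library, so its response to PE could not be measured.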
